A study of Arabidopsis thaliana with 4 samples.

Results

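Copper amine oxidases are enzymes that use copper and a modified tyrosine to oxidise the terminal amino group of polyamines such as putrescine, releasing an aminoaldehyde, ammonia and hydrogen peroxide. CCS is the copper chaperone that hands copper to the copper/zinc superoxide dismutases. The genes described here are 7 copper amine oxidase loci and CCS, 8 in all, read from each probe set annotated to 1 of them alone. By this rule 7 of the 8 genes were measured, 6 copper amine oxidases and CCS, on 9 of the 13513 probe sets that carry a single gene. AT4G12290 dropped out, because its probe set is shared with a second gene. The set was chosen by the difference between jaw-D and control on these same arrays, so the members' differences are given as a description, without a test of their own.

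Each of the 4 arrays was hybridised with RNA of the aerial parts of Arabidopsis plants at an age of 2 weeks. The control group is the Columbia strain (n = 2), and the other group is jaw-D (n = 2), an activation-tagged line: enhancers in the inserted tag raise the microRNA miR319a, which pairs with transcripts of TCP transcription factors that limit leaf growth. The labels name no other allele and no treatment, and do not say how many plants went into a sample. Every plant of a group may carry further differences of that 1 line, which these arrays cannot tell apart from those of the tag.

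Intensities below are given in units of the deposited scale after quantile normalization of the 4 arrays. A log2 difference is jaw-D minus control of log2(intensity + 302.3), 302.3 units being the 25th percentile of all deposited values, and it understates the change of dim probe sets. Bacterial control probe sets, which should find no plant RNA, reached at most 352.6 deposited units, and this is taken as the background level. Brightness depends on the probes, so no gene's intensity is set against that of another gene. The array values correlated at 0.990 between controls, 0.992 between jaw-D arrays and 0.979 to 0.984 between groups. Of the leaf markers, RCA (rubisco activase) was bright in both groups (69442 ± 5150.3 units in control, 67365 ± 666 in jaw-D), LHCB4.1 differed by -0.15, and SBPASE, of the Calvin cycle, fell by 0.42 (limma adjusted p = 0.044). No root or flower marker of the lists had a probe set with a single gene.

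Among the copper amine oxidases, 1 locus stood far below its control level in jaw-D, and the others that could be read did not. AT1G31670 was under background on every array and could not be read. AT1G31690 had 2 probe sets, and both gave this picture. On the brighter one, 246603_at, the controls read 6382 and 6247 units and the jaw-D arrays 787 and 870 units. All 4 values were above background, the groups lay far apart, and the arrays of a group were close to each other. The mean was 6314 ± 95.4 units in control and 829 ± 58.4 in jaw-D (SD, n = 2 each), which leaves 13.1% of the control intensity. The log2 difference was -2.55 ± 0.09 (SE).

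The second probe set of AT1G31690, 246573_at, read 1698 and 2266 units in control and 185 and 65.9 units in jaw-D. Here the jaw-D arrays were under the background level, so their intensity has only an upper bound. On the deposited values the control level was at least 5.41-fold higher than jaw-D, counting each jaw-D array at 352.6 units. The fitted log2 difference of this probe set was -2.42, but with jaw-D under background its size follows the pseudocount (-3.79 with one 0.1 times as large and -1.25 with one 4 times as large), and only the direction and the bound are read from it. Both probe sets were read from the same RNA, so they are separate readings of the transcript and not separate plants. In whole aerial parts, fewer cells that express a gene and less of its RNA in each cell cannot be told apart.

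**Figure D1:**
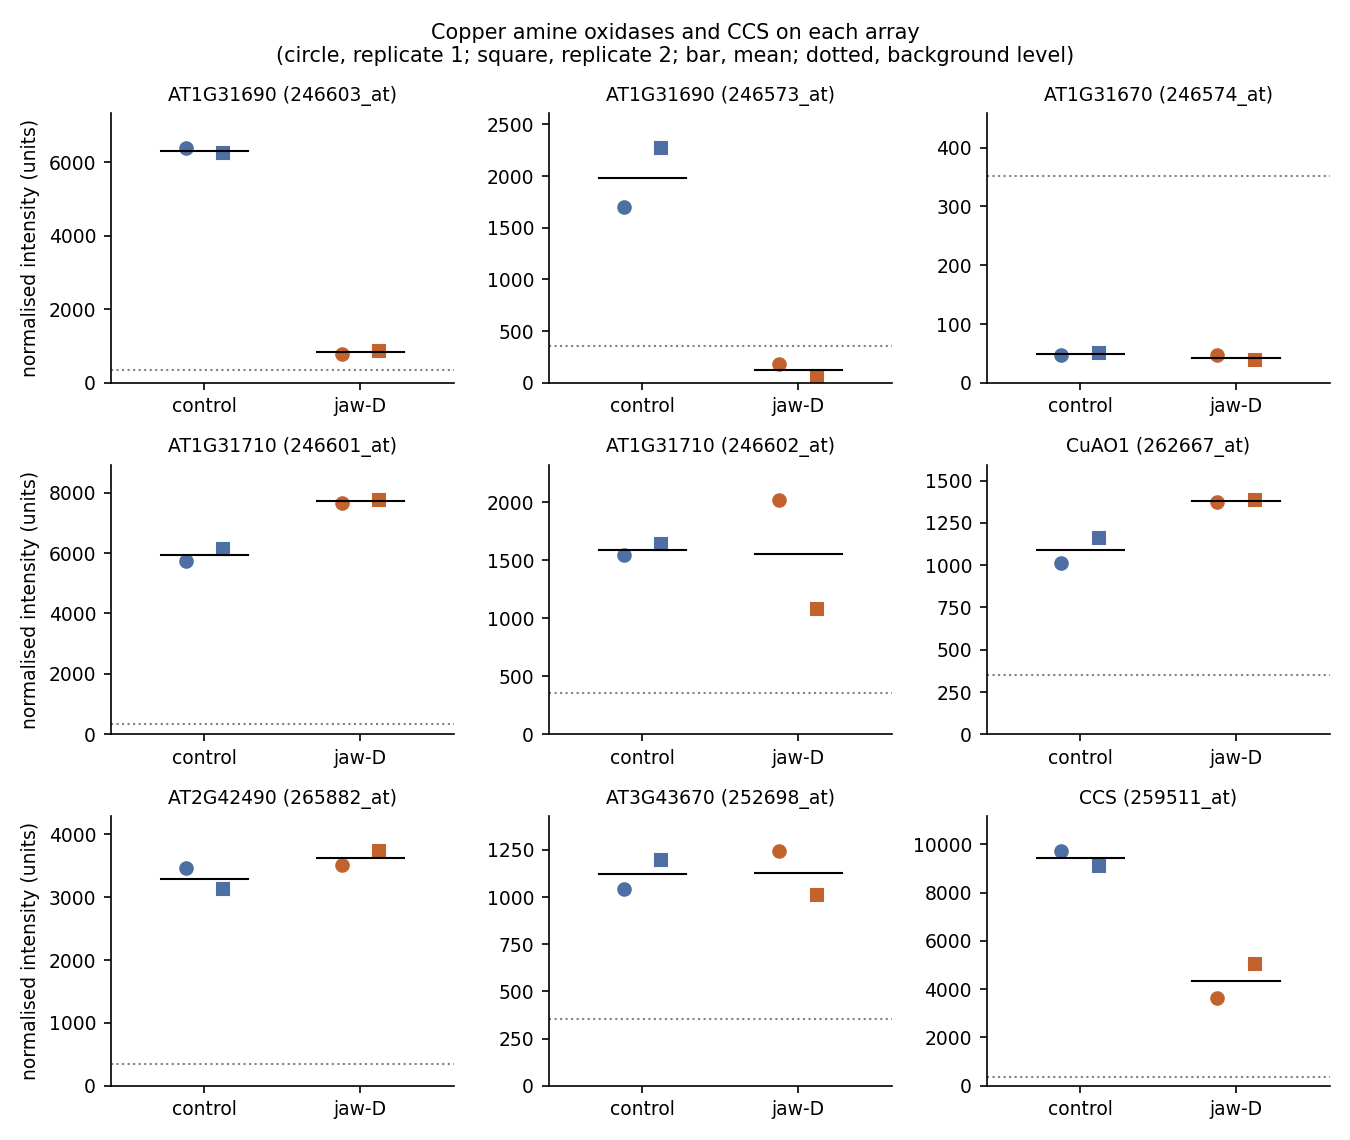
Normalised intensity in units (linear axis from 0) of the 9 probe sets of the 7 measured genes on each array; circles are replicate 1, squares replicate 2, black bars group means, and the dotted line the background level of 352.6 units. AT1G31690 is low in jaw-D on both of its probe sets and CCS on its single one. AT1G31670 is under background throughout, and the jaw-D means of the other copper amine oxidases lie near or a little above control.

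AT1G31690 stands between AT1G31670 and AT1G31710, also copper amine oxidase loci, with 0 annotated protein-coding genes between the 3 in the TAIR10.1 assembly. AT1G31710 did not share the low values of its neighbour. On its brighter probe set, 246601_at, the controls read 5735 and 6118 units and the jaw-D arrays 7668 and 7761. Both jaw-D arrays were above both controls, with means of 7714 ± 65.9 against 5926 ± 271 units and a log2 difference of 0.36 ± 0.07 (SE).

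Its second probe set, 246602_at, did not repeat this. It read 1548 and 1636 units in control and 2020 and 1081 units in jaw-D, so that the jaw-D arrays fell on either side of the controls. Its log2 difference was -0.08 ± 0.25 (SE), and the sign turned with the values as deposited (0.010) and without jaw-D replicate 2 (0.30). The probe sets of AT1G31710 therefore give no common direction. AT1G31670, at the other side of AT1G31690, was under background on every array (48.1 and 50.2 units in control, 47.5 and 38.7 in jaw-D), and no change of it could be measured.

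The genes beyond the tandem were taken as the 3 nearest measured loci on each side. None of the 6 passed the test (limma, lowest adjusted p = 0.279), and 0 had an unadjusted p under 0.05, where 19.9% of all probe sets did, so that a count of 0 among 6 says little. Their log2 differences ran from -0.17 to 0.31. On one side lay AT1G31620 and the MADS-box genes AGL86 and AGL92, of which AGL92 read 391 ± 17.2 units in control and 317 ± 62.4 in jaw-D, and the other genes were near background. Directly after AT1G31710, AT1G31720 was at 641 ± 98.1 and 664 ± 29.9 units (0.04), and AT1G31730 was at 3952 ± 343 and 3588 ± 13.5 units (-0.13). AT1G31750, further on, was near background. The jaw-D mean of AGL92 was also under the background level, so only AT1G31720 and AT1G31730 were bright enough in both groups to be read, and neither had a difference like that of AT1G31690.

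**Figure D2:**
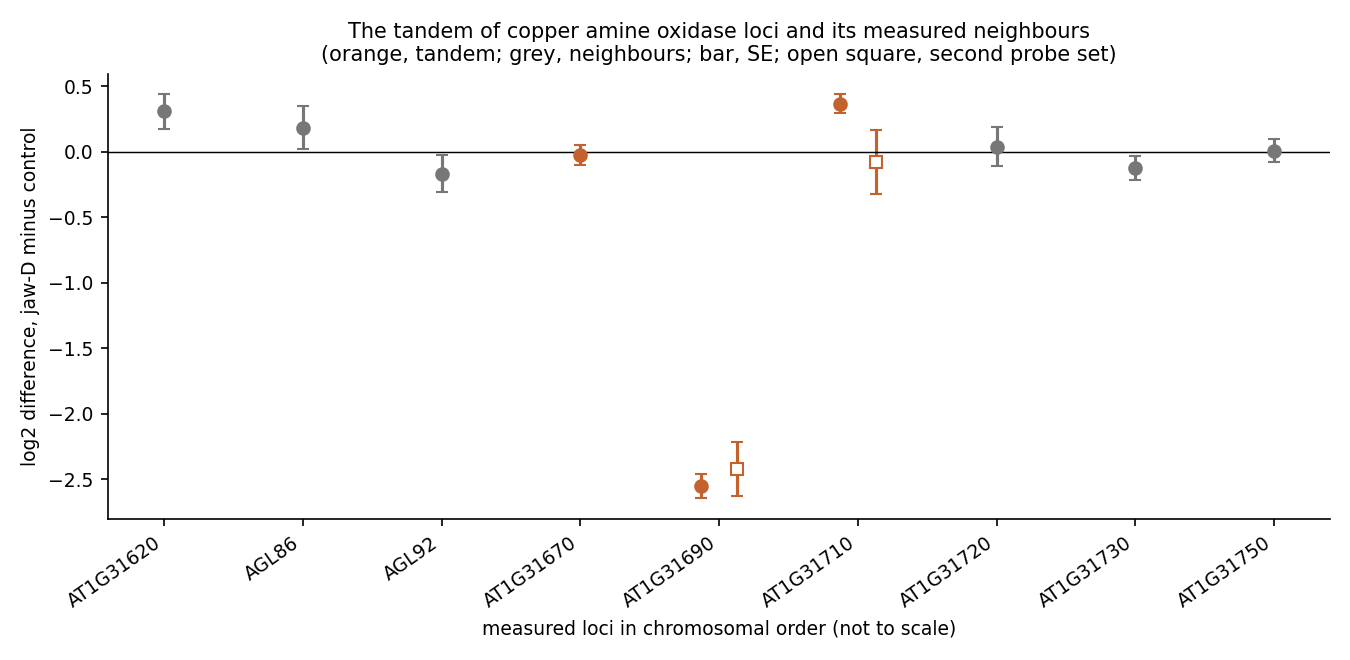
Log2 difference (jaw-D minus control, with its SE) of the 3 tandem copper amine oxidase loci in orange and of 6 measured neighbours in grey, in chromosomal order and not to scale; open squares are second probe sets. AT1G31690 lies at -2.55 on its brighter probe set; the open square of AT1G31690 is set by the pseudocount, and AT1G31620, AGL86, AT1G31670 and AT1G31750 are near background, so their points show no measured change.

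The remaining copper amine oxidases lie elsewhere in the genome, and none of the 3 had a jaw-D mean below that of control. CuAO1 (AT1G62810) encodes an enzyme of the cell wall space that oxidises putrescine and spermidine. It read 1011 and 1163 units in control and 1372 and 1386 in jaw-D, with means of 1087 ± 107 and 1379 ± 10.1 units. The jaw-D arrays were above both controls, and the log2 difference was 0.28 ± 0.13 (SE).

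AT2G42490 read 3462 and 3128 units in control and 3518 and 3732 in jaw-D. The groups did not overlap, but the lower jaw-D array was only just above the higher control, and the log2 difference was 0.13 ± 0.09 (SE). AT3G43670 read 1045 and 1199 units in control and 1243 and 1014 in jaw-D, where the jaw-D arrays enclosed the controls. Its log2 difference was 0.0040 ± 0.15 (SE), and its sign depended on the setting, from -0.11 to 0.12.

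CCS, the chaperone, was the other member with a large difference. Its transcript is known in Arabidopsis as a target of miR398, a microRNA made under copper shortage, as are transcripts of copper/zinc superoxide dismutases. It read 9709 and 9118 units in control and 3645 and 5047 in jaw-D. Both jaw-D arrays were far below both controls but differed more from each other than the controls did, with 46.2% of the control mean left. The log2 difference was -1.08 ± 0.15 (SE), against -0.87 without jaw-D replicate 1 and -1.32 without jaw-D replicate 2.

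Across the 7 measured genes the median log2 difference was 0.0040, beside 0.0056 over all 22746 probe sets tested. The median alone hides AT1G31690 and CCS, which lay at -2.55 and -1.08, while the other 5 genes lay between -0.03 and 0.36. The value of -0.03 is that of AT1G31670, which was under background and shows no measured change. The value of 0.36 is that of AT1G31710 on its brighter probe set, and its second probe set lay at -0.08. Only 6 probe sets of the whole table had a lower difference than AT1G31690 on its brighter probe set, and 75 had a lower one than CCS. Because the members were picked with this contrast in view, these ranks are a description and support nothing further.

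In the limma fit over all probe sets, 2 of the 7 genes, AT1G31690 and CCS, passed as lower at an adjusted p under 0.05, where 2.54% of all probe sets did (578), and 0 of 7 passed as higher, where 1.64% did (374). Since the choice of members used this contrast, nothing is read from these counts. With each array centred on its median the calls over all probe sets were 978 lower and 248 higher. Both jaw-D arrays were below both controls for 3 of the 7 genes, against 23.6% of all probe sets, and above both for 3, against 25.5%. The third of the lower ones is AT1G31670, which was under background on every array and whose groups overlap on the deposited values. Of the higher ones, AT1G31710 was higher only on its brighter probe set, and the groups overlapped on its other probe set. With 1 array left out a group holds a single array, and calls dropped over the whole table, not only among the members. The log2 differences then ran from -2.61 to -2.51 for AT1G31690 on its brighter probe set and from -1.32 to -0.87 for CCS. Without the variance trend of the fit 1 member was called, AT1G31690, where 51 probe sets were lower and 14 higher over the whole table.

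**Figure D3:**
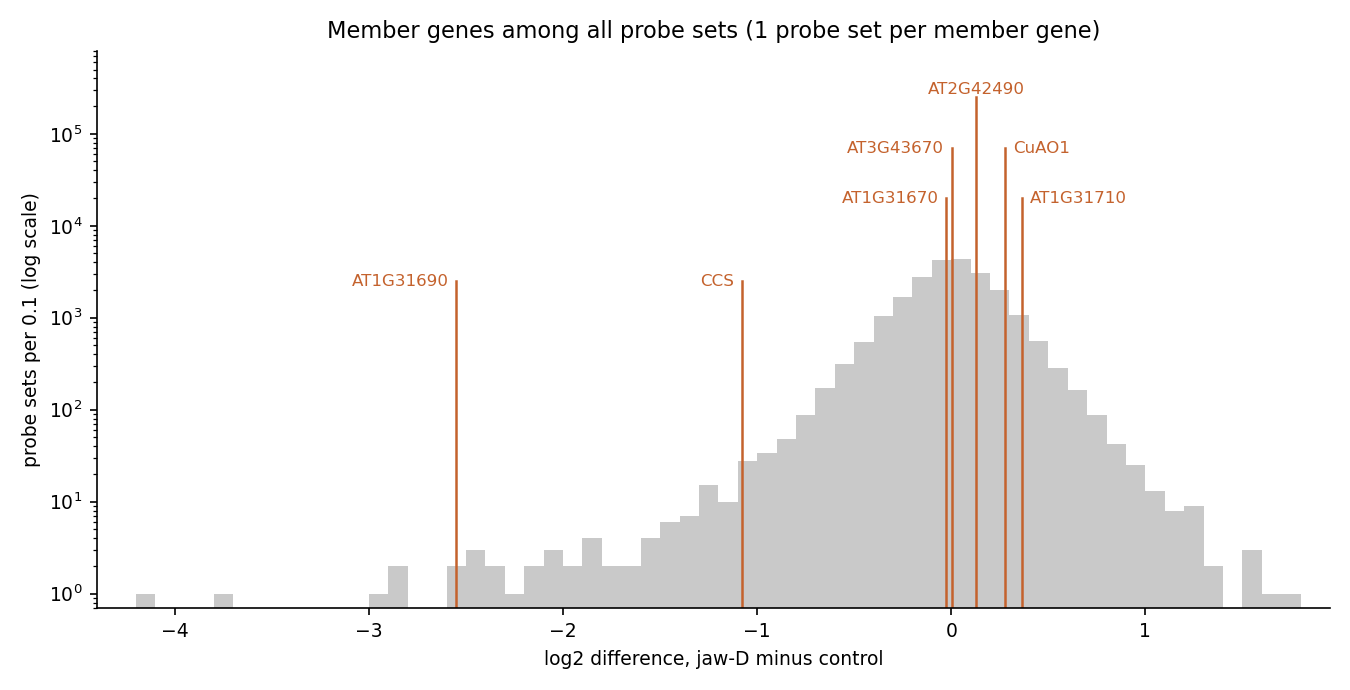
Number of probe sets (log axis) by log2 difference between jaw-D and control in steps of 0.1, over all 22746 probe sets, with the 7 measured genes marked by orange lines whose height has no meaning. AT1G31690 and CCS lie in the lower tail at -2.55 and -1.08, and the other 5 genes lie in the main body. Of these, AT1G31670 was under background, so its place shows no measured change. AT1G31710 is marked at its brighter probe set, and its second probe set did not repeat that difference.

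Genes with related work were taken from 7 lists written from general knowledge: other copper amine oxidases, superoxide dismutases, copper transport and chaperones, the copper deficiency response, other copper proteins, the enzymes that act on polyamines and on the aminoaldehydes, and polyamine synthesis. Of 85 loci in these lists, 16 had a probe set of their own. The cytosolic and plastid copper/zinc superoxide dismutases that receive copper from CCS, the copper transporters and the copper-responsive regulator SPL7 were not among them and were not analysed here. None of the 16 passed the limma test over all probe sets, 3 had an unadjusted p under 0.05, where 19.9% of all probe sets did, and 4 were near background. That share is close to the background, so the 3 are named by the rule of smallest p and not as a result about the lists. Their median log2 difference was -0.08.

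The 3 with the smallest p came from different lists. AT5G15950, of the polyamine synthesis list, read 1430 and 1291 units in control and 807 and 720 in jaw-D. The groups were well apart, with means of 1360.2 ± 98.2 and 763 ± 61.7 units and a log2 difference of -0.64 ± 0.13 (SE, limma adjusted p = 0.0623). It passed with a filter on dim probe sets (limma adjusted p = 0.0081), where 1002 of 16441 probe sets were higher and 1148 lower. It also passed with a pseudocount of 0.1 times the size (limma adjusted p = 0.0461), where 525 of 22746 were higher and 738 lower. In the other settings its adjusted p stayed above the threshold.

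ALDH10A8, an aldehyde dehydrogenase of the family that oxidises aminoaldehydes, read 13146 and 14152 units in control and 17333 and 16122 in jaw-D. The jaw-D arrays were the higher ones, with a log2 difference of 0.29 ± 0.07 (SE, limma adjusted p = 0.103). Its relative ALDH10A9 was at 8048 ± 593 and 8391 ± 434 units (0.06, adjusted p = 0.772), with overlapping groups. ARPN, a plantacyanin, which is a small blue copper protein, read 6784 and 8274 units in control and 5948 and 5478 in jaw-D. The jaw-D arrays were the lower ones, with a log2 difference of -0.38 ± 0.11 (SE, limma adjusted p = 0.137). ALDH10A8 and ARPN passed with the filter on dim probe sets (limma adjusted p = 0.0438 and 0.0456). That fit called 1002 probe sets higher and 1148 lower, against 374 and 578 without the filter, so nothing particular to these genes is read from it.

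Of the rest of the polyamine synthesis list, SAMDC, an S-adenosylmethionine decarboxylase gene, was level at 35237 ± 2027 and 34228 ± 817 units (-0.04, limma adjusted p = 0.83), and AT3G25570 was at 845 ± 13.5 and 592 ± 177 units (-0.37, adjusted p = 0.329). All 3 measured genes of this list, of 12 listed, are S-adenosylmethionine decarboxylase genes, and no other step of polyamine synthesis was measured. Their differences were all negative, and 0 passed. With so few genes, 1 of them level, and a median of 0.0056 over all probe sets, no common fall is read from this. In the copper transport and chaperone list, AT1G53030 was at 1245 ± 122 and 1119.5 ± 53.1 units (-0.12) and AT1G02410 at 4069 ± 9.67 and 4024 ± 95.7 (-0.02). Neither passed (limma adjusted p = 0.69 and 0.951).

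AT1G71200, the 1 measured gene of the copper deficiency list, had 545 ± 65.6 units in control and 437 ± 103 in jaw-D (-0.20, limma adjusted p = 0.572), with overlapping groups. The 1 measured locus of the superoxide dismutase list, AT3G56350, and the 1 of the other copper amine oxidases, AT4G12270, were near background. Among 6 other copper proteins, SKU5, a relative of multicopper oxidases that acts in directional root growth, was at 21391 ± 21.7 and 20587 ± 1542 units (-0.06, adjusted p = 0.757). AT5G21100 and AT5G21105 differed by -0.11 and -0.0082, and AT4G39830 and LAC16, a laccase gene, were near background.

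**Figure D4:**
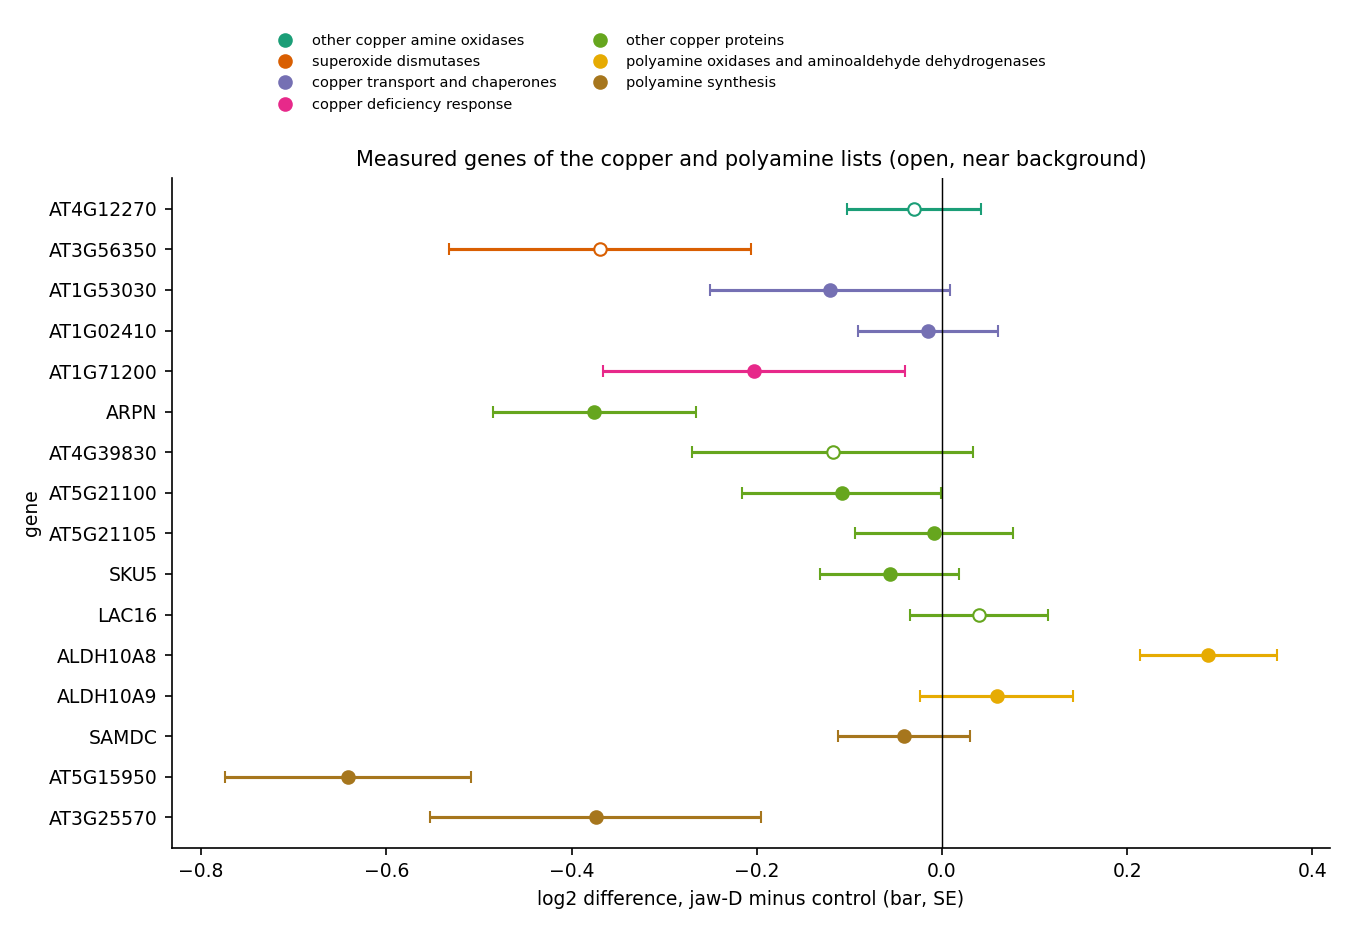
Log2 difference (jaw-D minus control, with its SE) of the 16 measured genes in 7 lists of copper and polyamine genes, coloured by list, with open points for genes near background. The points run from -0.64 for AT5G15950 to 0.29 for ALDH10A8, and none passed the test.

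Genes with the most similar values over the 4 arrays were found by the Euclidean distance between log2 values, each minus its control mean, among the probe sets with a single gene. Nearest to CCS was AT1G26220, at a distance of 0.039, which read 2488 and 2242 units in control and 797 and 1172 in jaw-D. AT2G47880 (0.12) and AT4G19530 (0.13) followed, with log2 differences of -1.09 and -1.03. In all 3, as in CCS, jaw-D replicate 1 was lower than jaw-D replicate 2. The 3 genes were chosen by their values on these same 4 arrays, so this order was fixed by the choice.

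Nearest to AT1G31690 was AT2G29290, at a distance of 0.12, which read 10338 and 9433 units in control and 1402 and 1393 in jaw-D. AT5G18600 (0.27) and AT3G05730 (0.29) were next, with log2 differences of -2.37 and -2.34. With 4 arrays in 2 groups, such likeness reflects mainly the size of the difference between the groups. No other copper amine oxidase had a difference near that of AT1G31690, so none could be among the 3 nearest.

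**Figure D5:**
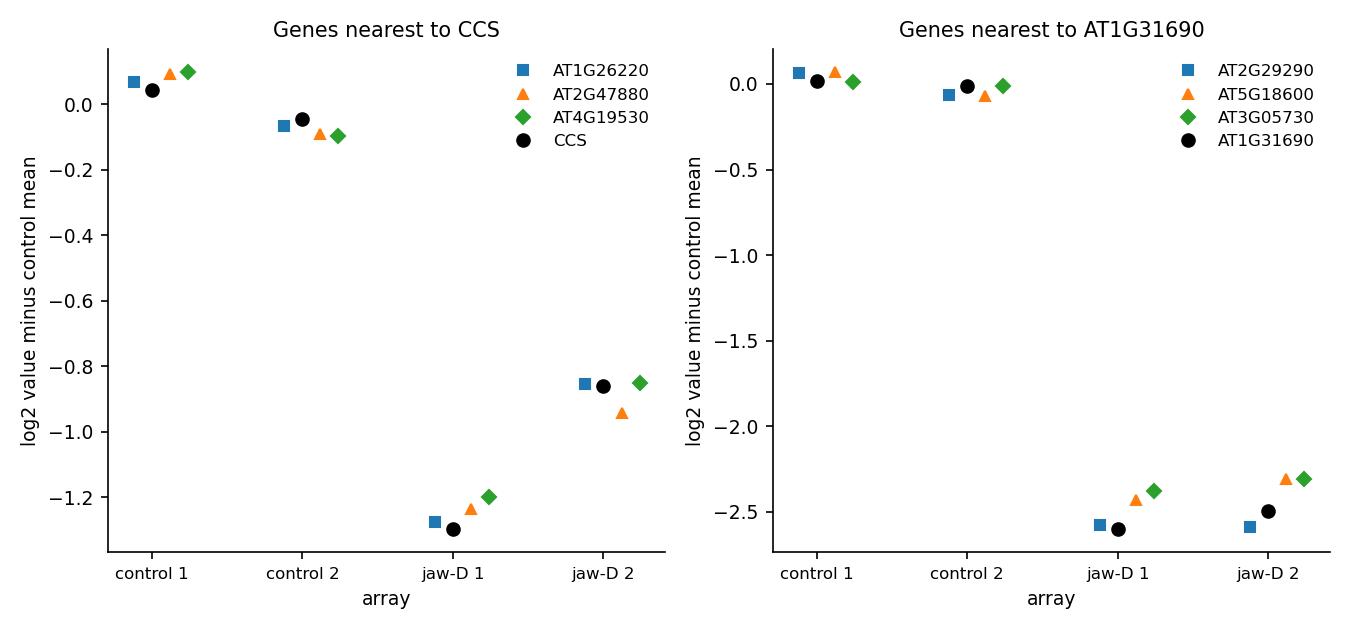
Log2 value minus the control mean on each of the 4 arrays for CCS (left, black circles) and AT1G31690 (right, black circles) with the 3 nearest genes of each in colour. Within each panel the 4 genes lie close together on every array, because they were chosen by that closeness. Group differences are -1.09 to -1.03 around CCS and -2.58 to -2.34 around AT1G31690.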

How the data were processed

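Per the labels, 4 arrays were made from total RNA, 2 for Columbia controls and 2 for jaw-D. The deposited values are linear intensities of 22810 probe sets on each array. Their 2% trimmed mean came to 2500.2 on each array, which shows a scaling before deposit; the software is not given in the sources used here. After leaving out 64 control probe sets, 22746 were quantile normalised, since array medians differed by 11.0%, and fitted on the log2(value + 302.3) scale with limma (version 3.58.1, lmFit and eBayes with a variance trend, R version 4.3.3), with Benjamini-Hochberg adjustment over all of them. The fit leaves 2 residual degrees of freedom. It was run on simulated arrays with normal noise whose spread followed a smooth trend with intensity. That is a simpler case than these arrays, so it does not check the calls made here. Each SE and p-value of the fit uses a variance drawn towards the trend over all probe sets, not the spread of that gene's arrays alone. Whether samples of 1 group are separate plants is not in the labels. The spread between arrays behind these variances is therefore possibly a technical one.

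Gene names are those of the platform annotation, brought up to date by gene identifier with the TAIR10.1 gene table, which matched 13436 of 13513 probe sets with 1 gene; another 503 had several, and 8730 carry no name here. A gene was represented by its brightest probe set. The genes named were the members, the listed genes, the 3 measured loci on each side of the tandem and the 3 genes most like CCS and AT1G31690. Members and lists were chosen with earlier results of these data known.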

Additional observations from a re-analysis of the deposited data

How the results depend on the processing

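With 4 arrays, their number limits the precision of every value. The log2 differences of AT1G31690 and CCS kept their sign under all 11 alternatives. With both jaw-D arrays far below both controls, this was largely fixed in advance. The fit without the variance trend, the filter and the replicate block cannot change a difference at all. For AT1G31690 the differences ran from -2.89 to -1.88 on the brighter probe set and from -3.79 to -1.25 on the dimmer one. Those ends came from the pseudocount at 0.1 and 4 times its value. For CCS the differences ran from -1.32 to -0.87. AT1G31710 on its brighter probe set stayed between 0.26 and 0.41, and crossed the threshold of the fit only at 0.1 times the pseudocount and with the filter on dim probe sets. Over the 9 member probe sets, 84 of 98 alternative values moved by less than the spread between replicates. Values from the settings that cannot change a difference are counted in this, so the tally does not measure stability. Over all probe sets, 374 were higher and 578 lower. These counts were 248 and 978 when array medians were set equal (higher ones made up 20.2% of calls, against 39.3%), 14 and 51 without the variance trend, and 1002 and 1148 with the filter on dim probe sets, which tests fewer probe sets. With 1 array left out, where the lone array is assumed to vary like the other group, they were 0 higher and 0 to 12 lower. Members called lower numbered 2, but 1 without the variance trend and 0 to 1 with 1 array left out. Of the listed genes 0 were called, but 1 at 0.1 times the pseudocount and 3 with the filter, and 0 with any 1 array left out. Arrays share only a number across groups, not a stated source: deviations of same-numbered arrays correlated at -0.021, and with the replicate block 157 probe sets were higher, 309 lower, 2 members lower and 0 listed genes called. Other causes of the changes between settings were not tested.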
